A study of Mus musculus with 6 samples.

Results

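The chloride channel genes measured here are 10 of the 52550 genes in the table, and they were chosen by name: Cftr and Clcn2, the anoctamins Ano1, Ano6, Ano9 and Ano10, the exchangers Clcn3, Clcn5 and Clcn7, and Lrrc8a. All 10 were found by the Ensembl identifier that belongs to each symbol. They were followed in fluorescent cells sorted from the livers of embryos of the CD-1 strain that carry Sox9-GFP, a transgene in which green fluorescent protein reports the biliary transcription factor SOX9. There were 3 libraries at embryonic day 16 (E16) and 3 at E18, here called replicates A, B and C. These are the stages as labelled, which the study's methods write as E16.5 and E18.5. Each library came from a pool of 15 livers that were dissociated, depleted of blood lineage cells on magnetic beads and sorted for GFP, and the labels name no other treatment. All libraries thus share the transgene and the sort. A pool averages over its embryos, whose sex is not given. GFP marks any cell of the dissected tissue in which the reporter is active, and stage and sort cannot be told apart because each library was sorted from 1 stage.

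Cholangiocytes, the epithelial cells of the bile ducts, modify bile by secreting chloride and bicarbonate, and water follows the ions into the lumen. The hormone secretin raises cAMP and opens CFTR in the apical membrane, while purinergic signals raise cytosolic calcium and open ANO1 (also called TMEM16A). The other genes have different places in the cell: CLC-2 is a plasma membrane channel opened by hyperpolarization, CLC-3, CLC-5 and CLC-7 exchange chloride for protons in endosomes and lysosomes, ANO6 is a calcium-activated phospholipid scramblase and ion channel, ANO10 lies mainly in the endoplasmic reticulum, and LRRC8A is the obligate subunit of the channel that lets swollen cells lose anions.

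The promoter windows of 3 of these genes are given because their messages had the most different patterns below: Cftr, whose change did not pass the test, Ano1, which had the largest change, and Clcn7, which moved against its partner Ostm1. Each window holds the 250 bases before the RefSeq transcription start on GRCm38.p6, written 5′ to 3′ on the strand of the gene. Capitals mark matches, on either strand, to 1 of 7 short motifs searched.
Cftr, chr6:18170437-18170686, forward strand: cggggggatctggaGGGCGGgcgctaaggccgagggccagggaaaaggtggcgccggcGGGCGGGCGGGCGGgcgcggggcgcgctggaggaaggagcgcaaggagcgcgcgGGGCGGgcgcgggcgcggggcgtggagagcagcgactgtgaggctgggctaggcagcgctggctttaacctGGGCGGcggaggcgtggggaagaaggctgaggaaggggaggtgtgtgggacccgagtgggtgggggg
Ano1, chr7:144738574-144738823, reverse strand: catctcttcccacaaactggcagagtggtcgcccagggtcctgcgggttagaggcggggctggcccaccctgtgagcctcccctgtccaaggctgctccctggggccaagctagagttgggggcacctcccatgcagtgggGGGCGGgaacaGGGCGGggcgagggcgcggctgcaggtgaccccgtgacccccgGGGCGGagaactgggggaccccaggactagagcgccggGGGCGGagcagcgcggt
Clcn7, chr17:25133141-25133390, forward strand: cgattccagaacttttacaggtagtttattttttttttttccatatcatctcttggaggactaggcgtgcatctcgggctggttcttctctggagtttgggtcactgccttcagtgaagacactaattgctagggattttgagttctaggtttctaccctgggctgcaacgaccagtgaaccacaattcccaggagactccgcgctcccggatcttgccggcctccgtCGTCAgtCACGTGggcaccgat
The capitals in the Cftr window are 6 GC boxes (GGGCGG or its reverse complement, with overlapping matches counted separately) and those in the Ano1 window are 4 GC boxes. A GC box was present in 32.7% of the 32851 promoter windows of this length and in 8 of the 12 windows that belong to 9 of the 10 genes. No window was found for Ano9. The Cftr window had a GC content of 76.4% and 30 CpG dinucleotides, the Ano1 window 72.0% and 16, against medians of 52.4% and 6 over all windows. The Clcn7 window held no GC box, a GC content of 50.4% and 12 CpG dinucleotides. Its capitals are TGACG on the reverse strand (17.8% of all windows) and an E-box, CACGTG (6.02% of all windows). TGACG is a half-site of a cAMP response element, and it also occurred in windows of Ano6, Clcn2 and Lrrc8a and in that of Ostm1. The E-box was added to the search after the Clcn7 window had been read, and it also occurred in the window of Lrrc8a. The HNF1 motif GTTAAT and the ONECUT motif ATNGAT, letters bound by hepatobiliary transcription factors, matched in 0 of the 12 windows, against 6.43% and 18.9% of all windows. The SOX motif ACAANG matched in 5 of the 12, against 36.3%, and none of those 5 belongs to Cftr, Ano1 or Clcn7. CCAAT, the last motif searched, occurred in 33.8% of all windows and in windows of Clcn2 and Clcn3. The Ano1 window lies inside the longest annotated span of the gene, next to the start of several full-length transcripts, and its last bases overlap the first exon of another transcript.

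The expression values are TPM, that is reads divided by gene length and scaled to 1000000 per library, so levels of different genes can be compared. Recovered read totals ran from 13093937 to 26206374, and each E18 library had fewer reads than each E16 library. Between the stages, log2(TPM + 1) was compared with limma, and a gene passed when its p-value, adjusted by Benjamini-Hochberg over 22452 genes that averaged 1 TPM or more, was under 0.05. All 10 chloride channel genes reached that average. The labelled cell type was checked on 12 cholangiocyte genes. Of these, 11 had at least 1 TPM in each library, and 11 were higher at E18, a count that was 2 without replicate A of E18, 4 without replicate B of E18 and 5 with no filter, median-of-ratios scaling or quantile normalization. Their summed level in replicates A to C was 2490, 3046 and 1023 TPM at E16 and 12823, 15099 and 8984 TPM at E18, with replicate C of E16 the lowest. Message of the hepatocyte lineage was also present: Alb, for serum albumin, had 117854, 124817 and 148077 TPM at E16 and 60258, 30024 and 70152 TPM at E18, and 7 of 12 hepatoblast genes were lower at E18. That count was 2 without replicate A or C of E16 or A of E18, 3 without replicate B of E16 or with no filter, and 4 with quantile normalization. In such pools, fewer cells of a type and less RNA per cell cannot be told apart.

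**Figure D1:**
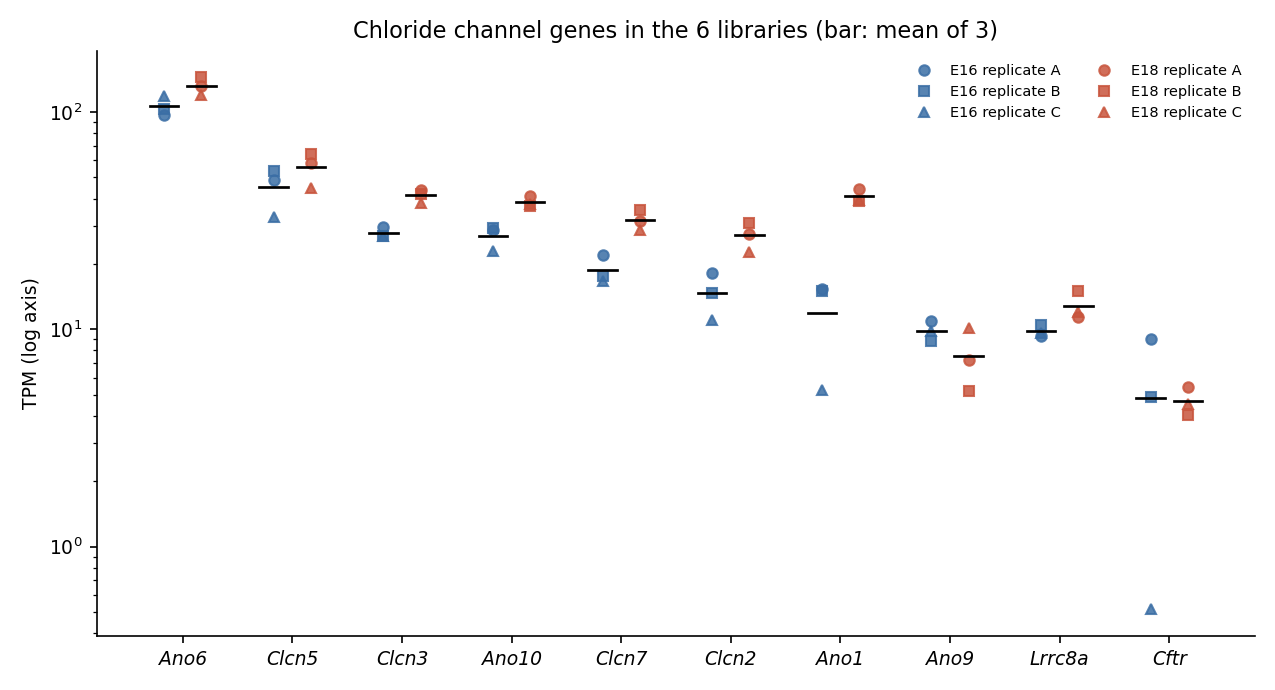
TPM (vertical log axis) of the 10 chloride channel genes in each library, with E16 in blue, E18 in red, a marker shape per replicate and a black bar at the mean of 3 libraries. Ano1 lies between 5.26 and 15.3 TPM at E16 and between 39.1 and 44.4 TPM at E18, whereas the Cftr libraries of E16 spread from 0.517 to 9.07 TPM.

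Of the 10 genes, 5 rose between E16 and E18: Ano1, Clcn2, Clcn7, Clcn3 and Ano10. Among all genes tested, 26.0% were higher at E18 and 5.22% were lower by the same rule. None of the 10 was lower in limma, at an adjusted or an unadjusted p under 0.05, and voom on recovered reads gave 0 lower at an adjusted p of the 8 it could test. At an unadjusted p, 1 was lower with voom, with median-of-ratios scaling, with quantile normalization and without replicate C of E18. For 7 of the 10 the stages did not overlap, in each case with all libraries of E18 above all of E16. Of all genes, 53.3% had stages that did not overlap, a share that counts both directions. With 3 libraries against 3, an exact two-sided permutation test cannot go below p = 0.1, and each of these 7 genes had that value. The median log2 fold change was 0.43 over the 10 genes and 0.42 over all genes tested, so the median of the set was close to that of the table.

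That general shift depended on the scaling. With median-of-ratios scaling, which sets the typical gene to no change, the median over all genes was 0.01 and that over the 10 chloride channel genes 0.03. Only Ano1 passed on that scale, where 6.44% of all genes were higher and 10.5% lower. Quantile normalization also left 1 of the 10, Ano1. The E18 libraries carried the calls as well: without replicate A of E18, 0 of the 10 passed in limma, 5 had an unadjusted p under 0.05, and Ano1 had an adjusted p of 0.0576. Without replicate B of E18, Ano1 alone passed, and without replicate B of E16 3 of the 10 did.

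**Figure D2:**
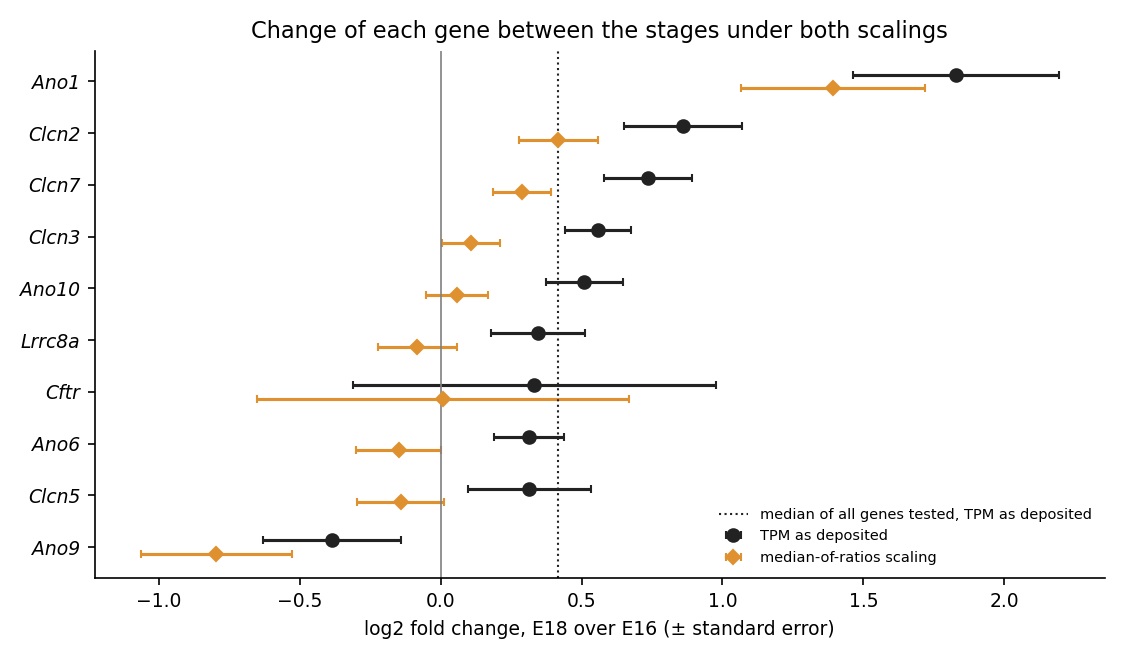
Log2 fold change of E18 over E16 (horizontal axis, with the standard error as a bar) for the 10 genes, from TPM as deposited (black circles) and after median-of-ratios scaling (orange diamonds), with a dotted line at the median of all genes tested. Ano1 is the farthest to the right on both scales, at 1.83 and 1.39, and Ano9 the farthest to the left, at -0.39 and -0.80.

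Among the channels of the plasma membrane, Ano1, the calcium-activated chloride channel, had the largest change of the 10. Ano1 (ENSMUSG00000031075.18) spans chr7:144588549-144751974 of GRCm38 (reverse strand, 6244 exon bases). Its level at E16 was 15.3 TPM in replicate A, 15.1 in B and 5.26 in C, and at E18 it was 44.4, 39.1 and 39.4 TPM. The stages did not overlap, and replicate C of E16 lay well below its own stage. The mean went from 11.9 ± 5.74 to 41.0 ± 2.99 TPM (SD, n = 3), a ratio of 3.45, with a log2 fold change of 1.83 (SE 0.36, limma adjusted p = 0.0157). This moved the gene from above 61.7% to above 81.0% of the protein-coding genes, and from the 7th to the 4th highest of the 10. Over 13 alternative analyses, its log2 fold change lay between 1.37 and 2.06, and it passed in 12 of them. The values rest on 262 to 1898 recovered reads per library. Ano1 also marks the interstitial cells of Cajal, the pacemaker cells of the gut. Kit, the defining receptor of those cells, had 9.72, 9.45 and 4.39 TPM at E16 and 10.4, 16.8 and 15.1 TPM at E18 (limma adjusted p = 0.089). Etv1, a transcription factor gene of the same cells, had means of 0.656 and 1.25 TPM and was too low to be tested. The part of such cells in the rise of Ano1 was not tested.

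Cftr, the cAMP-activated chloride channel that is mutated in cystic fibrosis, was the lowest of the 10 genes at both stages and did not pass. The gene (ENSMUSG00000041301.15) spans chr6:18170687-18322768 of GRCm38 (forward strand, 7765 exon bases). It had 9.07, 4.87 and 0.517 TPM at E16 and 5.42, 4.03 and 4.53 TPM at E18. The E16 libraries spanned a 17.6-fold range that enclosed all 3 libraries of E18, which spanned a 1.34-fold range. The lowest value, replicate C of E16, rested on 32 reads, above the limit of 3 reads taken as detection. The mean was 4.82 ± 4.28 TPM at E16 and 4.66 ± 0.704 TPM at E18 (SD, n = 3), and the log2 fold change was 0.33 (SE 0.64, limma adjusted p = 0.705). The ratio of the mean TPM was 0.967, so the log scale, on which the lowest library weighs more, and the linear scale differ in sign. Without replicate C of E16 the log2 fold change was -0.45 (adjusted p = 0.312), and without replicate A of E16 it was 0.92 (adjusted p = 0.260). The sign also turned with quantile normalization (-0.10), and it stayed positive when any other library was left out.

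Epithelia other than the intrahepatic ducts also use Cftr, among them pancreatic ducts and the gallbladder, and some of their markers were present. Ctrb1 and Cpa1, digestive enzyme genes of pancreatic acinar cells, had their highest value in the library with the highest Cftr, replicate A of E16: 1914 TPM of Ctrb1 and 293 TPM of Cpa1. In the other E16 libraries Ctrb1 had 167 and 53.1 TPM, and at E18 it had 11.7, 35.9 and 0.841 TPM. The 10 acinar genes together had 82.0 to 2507 TPM at E16 and 18.5 to 56.6 TPM at E18, and 3 of the 8 tested were lower at E18, while Ptf1a, an acinar transcription factor, was at 0 in 5 libraries. Without replicate B of E16, A of E18 or B of E18, 0 acinar genes passed in limma (4, 3 and 3 at an unadjusted p under 0.05), without replicate C of E16 4 did, and without replicate A of E16 or C of E18, with no filter, with median-of-ratios scaling or with voom 1 did. The pancreatic endocrine and progenitor list had 4.30 to 46.9 TPM at E16 and 11.4 to 54.5 TPM at E18, with 0 of 6 genes passing in limma, also at an unadjusted p under 0.05 and with voom. The gallbladder and extrahepatic duct list had 7.63 to 37.9 TPM at E16 and 30.6 to 38.5 TPM at E18, and 1 of its 4 tested genes, Krt23, was higher at E18. At E16 the libraries had the same order, A over B over C, in Cftr, Ctrb1 and the sums of all 3 lists, whereas at E18 Ctrb1 was highest in replicate B and Cftr in replicate A. What these cells contributed to the Cftr level was not tested.

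Clcn2, the channel opened by hyperpolarization, had 18.1, 14.8 and 10.99 TPM at E16 and 27.4, 31.0 and 22.8 TPM at E18. Clcn2 (ENSMUSG00000022843.16) spans chr16:20702964-20717746 of GRCm38 (reverse strand, 6022 exon bases). No library of E16 reached the lowest of E18. The mean rose from 14.6 ± 3.58 to 27.1 ± 4.08 TPM (SD, n = 3), a ratio of 1.85, with a log2 fold change of 0.86 (SE 0.21, limma adjusted p = 0.0251). Median-of-ratios scaling gave 0.42 (adjusted p = 0.0902), and the gene did not pass without replicate B of E16 (adjusted p = 0.0546), replicate A of E18 (0.0786) or replicate B of E18 (0.0751).

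The genes of the endosomal and lysosomal exchangers had higher mean levels than Clcn2 at both stages, although the libraries of Clcn7 overlapped those of Clcn2. Clcn5, the exchanger of early endosomes whose loss causes Dent disease of the kidney, was the second highest of the 10 genes. Clcn5 (ENSMUSG00000004317.14) spans chrX:7153810-7319358 of GRCm38 (reverse strand, 11452 exon bases). It had 48.7, 53.8 and 33.0 TPM at E16 and 58.4, 64.4 and 44.9 TPM at E18. The stages overlapped, since replicate C was lowest in each, and the means of 45.2 ± 10.8 and 55.9 ± 9.97 TPM (SD, n = 3) gave a log2 fold change of 0.31 (SE 0.22, limma adjusted p = 0.285). Clcn3, the late endosomal exchanger, had 29.5, 26.9 and 26.9 TPM at E16 and 44.0, 42.2 and 38.2 TPM at E18. Its replicates were the closest at E16, within a 1.09-fold range, and the stages were clear of each other. Clcn3 (ENSMUSG00000004319.15) spans chr8:60910389-60983300 of GRCm38 (reverse strand, 17071 exon bases). The mean rose from 27.8 ± 1.46 to 41.4 ± 2.97 TPM (SD, n = 3), a log2 fold change of 0.56 (SE 0.12, limma adjusted p = 0.0175). On the median-of-ratios scale its change was 0.11 (adjusted p = 0.514), and without replicate A or B of E18 the adjusted p was 0.0719 or 0.0508.

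Clcn7, the lysosomal exchanger that also serves acid secretion by bone-resorbing osteoclasts, had 22.1, 17.6 and 16.7 TPM at E16 and 31.5, 35.3 and 28.7 TPM at E18. The mean rose from 18.8 ± 2.89 to 31.8 ± 3.32 TPM (SD, n = 3) without overlap, a ratio of 1.69 and a log2 fold change of 0.74 (SE 0.16, limma adjusted p = 0.0179). Its change after median-of-ratios scaling was 0.29 (adjusted p = 0.103), and leaving out replicate A or B of E18 gave an adjusted p of 0.0634 or 0.0553. Clcn7 (ENSMUSG00000036636.9) spans chr17:25133391-25162104 of GRCm38 (forward strand, 5291 exon bases). Ostm1 encodes the beta subunit that stabilizes CLC-7, and it went the other way. It had 13.1, 8.25 and 17.4 TPM at E16 and 3.67, 6.65 and 4.37 TPM at E18, and it fell by 1.22 on the log2 scale (SE 0.31, limma adjusted p = 0.0284). Ostm1 did not pass with no filter (adjusted p = 0.0553), with a replicate block (0.0564), without replicate A or C of E16 (0.0706 and 0.0746), or without replicate A or C of E18 (0.0868 and 0.0621), and it was lower in each. The ratio of Clcn7 to Ostm1 TPM, which no scaling of whole libraries can alter, was 1.68, 2.13 and 0.956 at E16 and 8.58, 5.31 and 6.56 at E18. It thus averaged 1.59 ± 0.592 and 6.82 ± 1.65 (SD, n = 3) without overlap (exact permutation p = 0.1, the smallest possible). That outcome was fixed, since Clcn7 was higher and Ostm1 lower at E18, each without overlap. The ratio is therefore a description and no further test. Replicate C of E16, with the lowest ratio, also had the highest sum of the 10 megakaryocyte and platelet genes. That sum ran from 3381 to 9770 TPM at E16 and from 98.2 to 780 TPM at E18, all 10 genes were lower at E18, none was at 0 throughout, and their part in the Ostm1 level was not tested.

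Ano6, the scramblase that exposes phosphatidylserine on activated platelets, was the highest of the 10 genes at both stages. This gene (ENSMUSG00000064210.6) spans chr15:95790843-95974751 of GRCm38 (forward strand, 12269 exon bases). It had 97.2, 104 and 118 TPM at E16 and 132, 144 and 120 TPM at E18, above 95.7% and 96.3% of the protein-coding genes. The stages did not overlap, although replicates C lay close together, and the means of 106 ± 10.7 and 132 ± 12.02 TPM (SD, n = 3) gave a log2 fold change of 0.31 (SE 0.12, limma adjusted p = 0.0892). After median-of-ratios scaling the value was -0.15 (adjusted p = 0.534). The megakaryocyte and platelet genes given above had their highest sum in the same E16 library as Ano6, replicate C. Replicate B of E16 had a lower sum than replicate A (3381 against 5868 TPM) but more Ano6. At E18 the sum was 98.2 to 780 TPM, below every E16 library, while Ano6 was above every E16 library. What those cells contributed was not tested.

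Ano10, the anoctamin of the endoplasmic reticulum that is mutated in a recessive ataxia, had 28.6, 29.4 and 22.9 TPM at E16 and 41.2, 36.9 and 37.8 TPM at E18. It rose from a mean of 27.0 ± 3.50 to 38.6 ± 2.23 TPM (SD, n = 3), a log2 fold change of 0.51 (SE 0.14, limma adjusted p = 0.0321). Ano10 (ENSMUSG00000037949.8) spans chr9:122175874-122294423 of GRCm38 (reverse strand, 5910 exon bases). This was the least stable of the 5 rises: it passed in 3 of 13 alternatives, its change after median-of-ratios scaling was 0.06 (adjusted p = 0.748), and no analysis that left out 1 library kept it, with adjusted p-values from 0.0526 without replicate B of E16 to 0.109 without replicate A of E18. Ano9, an anoctamin whose transport function is less settled, had the only negative log2 fold change of the 10 with TPM as deposited. Ano9 (ENSMUSG00000054662.8) spans chr7:141101212-141117806 of GRCm38 (reverse strand, 4410 exon bases). It had 10.9, 8.84 and 9.81 TPM at E16 and 7.26, 5.19 and 10.1 TPM at E18. Replicate C of E18 lay inside the E16 range, and the log2 fold change of -0.39 (SE 0.25, limma adjusted p = 0.249) did not pass.

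Lrrc8a, the obligate subunit of the swelling-activated channel, had 9.29, 10.5 and 9.63 TPM at E16 and 11.4, 15.03 and 12.003 TPM at E18. The stages did not overlap, yet the means of 9.81 ± 0.628 and 12.8 ± 1.95 TPM (SD, n = 3) differed by 0.35 on the log2 scale, which did not pass (SE 0.17, limma adjusted p = 0.145), and median-of-ratios scaling gave -0.08. The level itself is uncertain. Lrrc8a (ENSMUSG00000007476.18) spans chr2:30237715-30263790 of GRCm38 (forward strand, 4308 exon bases). Of this sequence, 66.2% is shared on the same strand with the protein-coding gene Gm28035, which was listed at or near 0 in the 6 libraries. Reads that match both may have been left out, since the counting mode is not given in the sources used here. The other 9 genes share at most 2.77% of their exon sequence with any other gene.

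In order of mean TPM, the 10 genes at E16 ran from Ano6 over Clcn5, Clcn3, Ano10, Clcn7, Clcn2, Ano1, Ano9 and Lrrc8a to Cftr. Only the steps from Ano6 to Clcn5, Clcn5 to Clcn3, Ano10 to Clcn7 and Lrrc8a to Cftr separated neighbours whose libraries did not overlap. At E18 the order was Ano6, Clcn5, Clcn3, Ano1, Ano10, Clcn7, Clcn2, Lrrc8a, Ano9 and Cftr. There, Clcn3, Ano1 and Ano10 could not be separated, nor could Clcn7 and Clcn2, or Ano9 and Cftr.

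Shares within a family do not depend on how libraries are scaled, so each gene was also expressed as a percentage of the summed TPM of its family. Of 24 shares compared, 11 did not overlap between the stages, and each of these had the smallest possible exact permutation p of 0.1, before any adjustment. In TPM, 53.3% of all genes tested did not overlap, and no such background was computed for shares. The count of 11 is therefore not read as a result about these families. Shares in a family are not independent, since a higher share of any gene lowers those of the others. Among the 10 anoctamins, Ano1 supplied 9.36%, 9.06% and 3.25% at E16 and 18.7%, 16.2% and 17.7% at E18. This was a mean of 7.22 ± 3.44% against 17.6 ± 1.23% (SD, n = 3), without overlap. Ano6 supplied most of the family, with 64.9 ± 7.12% and 56.6 ± 3.005% (exact permutation p = 0.2), and Ano10 had 16.4 ± 1.96% and 16.5 ± 1.06%. The share of Ano9 was 6.01 ± 0.675% at E16 and 3.25 ± 1.21% at E18, lower without overlap. Within the 9 CLC genes, Clcn2 had 10.3 ± 1.29% and 12.8 ± 0.496% and Clcn7 had 13.4 ± 1.52% and 15.1 ± 0.620%, both higher at E18 without overlap. Clcn5 had 31.7 ± 3.72% and 26.4 ± 1.67%, lower without overlap, while the share of Clcn3 was 19.9 ± 2.65% and 19.7 ± 1.36%. LRRC8A forms channels with LRRC8B to LRRC8E, and these partners were compared as well. Lrrc8a supplied 10.8 ± 1.37% and 12.1 ± 1.07% of the 5 LRRC8 genes, with overlap (exact permutation p = 0.2). Since reads shared with Gm28035 may have been left out, the share of Lrrc8a may be understated and those of its partners overstated. Lrrc8e had 6.75%, 6.50% and 2.53% at E16 and 14.4%, 12.2% and 11.3% at E18, and Lrrc8d had means of 29.5 ± 3.72% and 36.1 ± 2.30%. Lrrc8c had 17.9 ± 4.26% and 10.7 ± 2.75%, and Lrrc8b 36.4 ± 2.44% and 28.4 ± 0.749%. None of these 4 shares overlapped between the stages.

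**Figure D3:**
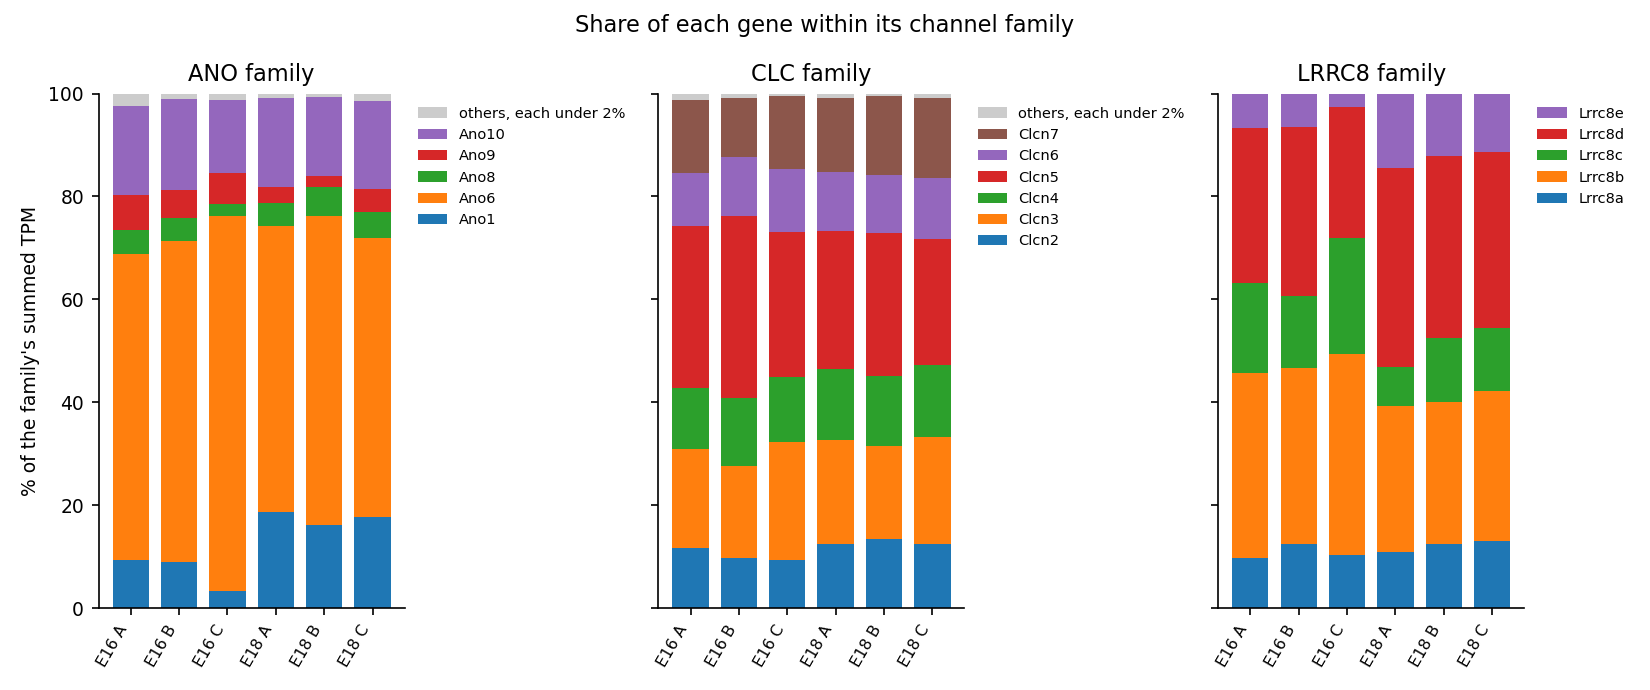
Share of each gene in the summed TPM of its family (vertical axis, %) in each library, for the anoctamin (ANO), CLC and LRRC8 families, with genes under 2% in every library joined as others. Ano1 makes up 3.25% to 9.36% of its family at E16 and 16.2% to 18.7% at E18, and Lrrc8e 2.53% to 6.75% and 11.3% to 14.4%.

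Because cholangiocyte messages differed between libraries, each chloride channel gene was also set against the mean log2(TPM + 1) of the 12 cholangiocyte genes in the same library, a measure chosen after the data had been seen. That list mean was 6.34, 6.38 and 5.08 at E16 and 7.64, 7.58 and 7.503 at E18, a range of 2.56 on the log2 scale. Relative to it, Ano1 stayed almost level, at -2.32, -2.37 and -2.43 at E16 and -2.14, -2.25 and -2.17 at E18, so its total range was 0.30. It was higher at E18 by 0.19, without overlap (exact permutation p = 0.1), and 0.454% of all genes tested were higher without overlap on this measure. Cftr was at -3.01, -3.82 and -4.48 at E16 and at -4.96, -5.25 and -5.03 at E18. It was thus lower by a mean of 1.31 without overlap, as were the other 8 genes, and 76.9% of all genes tested were lower in this way. Since most genes of the table are lower by this measure, the lower values of these 9 are not particular to them. The ratio of Ano1 to Cftr TPM was 1.69, 3.09 and 10.2 at E16 and 8.20, 9.71 and 8.69 at E18, and the stages overlapped because of replicate C of E16 (exact permutation p = 0.4).

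The messages most like Ano1 and Cftr were sought among 11383 protein-coding genes averaging 5 TPM or more, by the Pearson correlation of log2(TPM + 1) over the 6 libraries. For Ano1 these were Atoh8, Gdpd5, Gabbr1, Stk36 and Adamts7, with r from 0.998 to 0.9997, and all 5 had their lowest value in replicate C of E16 and their 3 highest at E18. For Cftr they were Tars, Pdx1, Vil1, Inava and Psmb7, with r from 0.960 to 0.979. Pdx1, a transcription factor of pancreas, duodenum and extrahepatic ducts, had 8.43, 5.70 and 0.290 TPM at E16 and 6.44, 5.80 and 4.79 TPM at E18. Vil1, which encodes the microvillus protein villin, had 29.6, 19.9 and 8.86 TPM and 26.8, 21.8 and 18.3 TPM. Tars, the most alike, ran only from 32.9 TPM in replicate C of E16 to 47.0 TPM in replicate A of E16. Between the same libraries, Psmb7 ran from 26.8 to 32.6 TPM and Inava from 2.52 to 7.85 TPM. These correlations are descriptions over 6 points that share library and stage, picked as the highest of many. The likeness of Cftr to Pdx1 and Vil1 is therefore not read as a tie to a tissue.

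**Figure D4:**
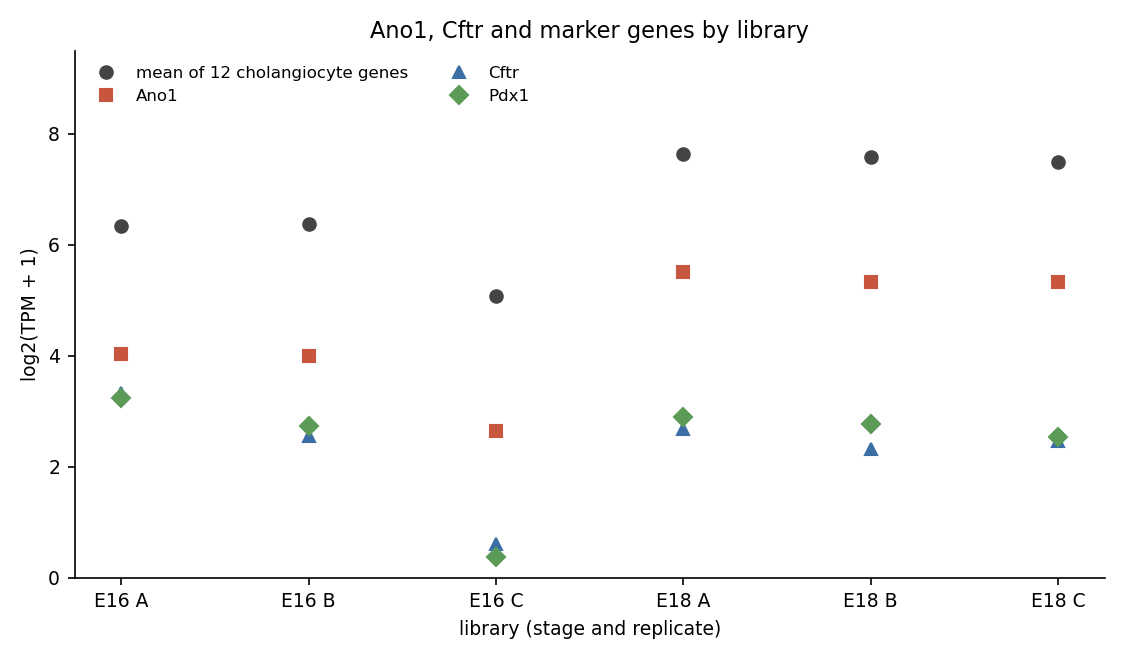
log2(TPM + 1) (vertical axis) in each library for Ano1 (squares), Cftr (triangles), Pdx1 (diamonds) and the mean of 12 cholangiocyte genes (circles). Relative to the cholangiocyte mean, Ano1 stays between -2.43 and -2.14 in all 6 libraries. Cftr lies beside Pdx1, which was among the genes picked as most like Cftr, and the others picked are not shown. Ano1, Cftr, Pdx1 and the cholangiocyte mean are all lowest in replicate C of E16.

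Outside the 10, genes listed as other chloride channels were also described. Their function as channels was not tested here. The list held 28 genes, of which 15 reached a mean of 1 TPM. In limma, 5 were higher at E18 (Ttyh1, Lrrc8e, Tmem206, Clcn4 and Clcn6), 10 did not pass, and 0 were lower, also at an unadjusted p under 0.05 and with voom. Their median log2 fold change was 0.49, beside 0.42 over all genes, of which 26.0% were higher and 5.22% lower. Lrrc8e, the partner of Lrrc8a whose share was higher above, had 6.43, 5.52 and 2.34 TPM at E16 and 14.99, 14.8 and 10.4 TPM at E18, a log2 fold change of 1.39 (SE 0.33, limma adjusted p = 0.0242). Tmem206, the proton-activated chloride channel, rose by 0.78 on the log2 scale (adjusted p = 0.0444), and Ttyh1, of the tweety family, by 1.71 (adjusted p = 0.0213). After median-of-ratios scaling only Ttyh1 of these 3 passed, and in the list as a whole 1 gene was higher and 1 lower. Without replicate A or B of E18, 0 passed, and without replicate A or C of E16 2 did. At an unadjusted p under 0.05, 6 were higher and 0 lower without replicate A of E18. Without replicate B of E18, 5 were higher and 2 lower. The highest of the list by level were Ttyh3, with means of 73.6 and 89.3 TPM, and Clca3a1, with 28.9 and 38.2 TPM, and neither passed.

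Proteins that fold, anchor or deliver CFTR and its relatives were followed in a list of 16 genes, 14 of them tested, of which 6 were higher, 2 lower and 6 did not pass (median log2 fold change 0.25). Ezr encodes ezrin, which ties apical membrane proteins to actin. It had 67.0, 62.7 and 34.9 TPM at E16 and 121, 130 and 123 TPM at E18, a log2 fold change of 1.22 (SE 0.24, limma adjusted p = 0.0152). The syntaxin genes Stx3, for apical delivery, and Stx1a, whose product binds CFTR, rose by 1.19 (adjusted p = 0.0145) and 0.98 (adjusted p = 0.0271). The falls were those of Ostm1, given above, and of Derl1, which removes misfolded CFTR from the endoplasmic reticulum, with 122, 104 and 141 TPM at E16 and 77.8, 80.8 and 73.9 TPM at E18 (log2 fold change -0.64, limma adjusted p = 0.0174). Of the most abundant, the chaperone gene Hspa8 rose from a mean of 451 to 703 TPM (limma adjusted p = 0.0190), and Canx, for the chaperone calnexin, had 398 and 392 TPM and did not pass. On the median-of-ratios scale the list turned, with 2 genes higher (Ezr and Stx3) and 5 lower. Without replicate A of E18, 0 passed (6 higher and 3 lower at an unadjusted p under 0.05), and without replicate C of E16 or B of E18 5 did.

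In a list of 20 genes for cAMP and calcium control, 19 were tested, 4 were higher, 3 lower and 12 did not pass (median 0.26). The shares over all genes tested were 26.0% higher and 5.22% lower. The secretin receptor gene Sctr had 6.38, 8.09 and 2.30 TPM at E16 and 51.7, 45.7 and 41.6 TPM at E18, a log2 fold change of 2.96 (SE 0.36, limma adjusted p = 0.00822). All 3 inositol trisphosphate receptor genes, whose channels release calcium from the endoplasmic reticulum, rose: Itpr1 by 1.15 (adjusted p = 0.00815), Itpr3 by 0.91 (adjusted p = 0.0462) and Itpr2 by 0.45 (adjusted p = 0.0401). After median-of-ratios scaling Itpr1 still passed (0.69), Itpr3 did not (0.46) and Itpr2 was at -0.01. The 3 falls were those of genes of the cAMP pathway. Prkar2b, a regulatory subunit of protein kinase A, had 136, 85.9 and 209 TPM at E16 and 18.6, 42.3 and 22.0 TPM at E18, a log2 fold change of -2.33 (SE 0.39, limma adjusted p = 0.0117). Adcy9, an adenylyl cyclase, fell by 0.94 (adjusted p = 0.0183), and Pde4d, which degrades cAMP, fell by 0.48 (adjusted p = 0.0453). All 3 were also lower after median-of-ratios scaling, where the list had 2 genes higher and 5 lower. Prkar2b was highest in replicate C of E16, the library with the most megakaryocyte and platelet message, and lowest in replicate A of E18, the library with the least, and the part of those cells was not tested. The count of 7 genes that passed was 3 without replicate A of E18, and 4 without replicate B of E16, B of E18 or C of E18. The most abundant genes of the list, Prkar1a with means of 270 and 311 TPM and Adcy6 with 157 and 188 TPM, did not pass.

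Genes that load the cell with chloride, and the kinases that set them, had the highest median log2 fold change, 0.80, of the 5 lists around the chloride channels. Of 16 genes 15 were tested, 9 were higher, 6 did not pass and 0 were lower, in limma at an adjusted or unadjusted p under 0.05 and with voom. Over all genes tested, 26.0% were higher and 5.22% lower at an adjusted p. Atp1b1 had 199.9, 240.1 and 124 TPM at E16 and 464, 464 and 356 TPM at E18, a log2 fold change of 1.22 (SE 0.25, limma adjusted p = 0.0167). The bicarbonate cotransporter gene Slc4a4 rose by 1.12 (adjusted p = 0.0113). Both also passed after median-of-ratios scaling, where 5 of the list were higher and 0 lower, at an unadjusted p 8 and 0. Without replicate A of E18, 2 genes of the list passed. Slc12a2, the basolateral cotransporter NKCC1, had 30.0, 21.6 and 9.44 TPM at E16 and 33.6, 45.0 and 39.2 TPM at E18, without overlap. Its log2 fold change of 1.04 did not pass (SE 0.38, limma adjusted p = 0.0719); it is named for its role, after its values had been seen.

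The vacuolar proton pump supplies the protons that CLC-3, CLC-5 and CLC-7 exchange. Of its 21 genes 18 were tested, with a median log2 fold change of 0.32. Of these, 4 were higher, 1 lower and 13 did not pass, where 26.0% of all genes tested were higher and 5.22% lower. The largest rises were those of Atp6v1d (0.69, limma adjusted p = 0.0150), Atp6v0b (0.63, adjusted p = 0.0310) and the accessory subunit gene Atp6ap2 (0.53, adjusted p = 0.0340). Atp6v0a1, a membrane subunit that directs the pump to its compartment, went from 60.1, 49.3 and 70.0 TPM to 30.4, 29.7 and 27.0 TPM and fell by 1.005 on the log2 scale (SE 0.15, limma adjusted p = 0.0104). With median-of-ratios scaling 0 of the 18 were higher, also at an unadjusted p, and 4 were lower. The count of 5 was 1 without replicate A of E18, 2 without A or C of E16 or B of E18, and 3 without B of E16. Atp6v1g1, with means of 110 and 141 TPM, and Atp6ap1, with 73.6 and 99.3 TPM, were the most abundant and did not pass.

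**Figure D5:**
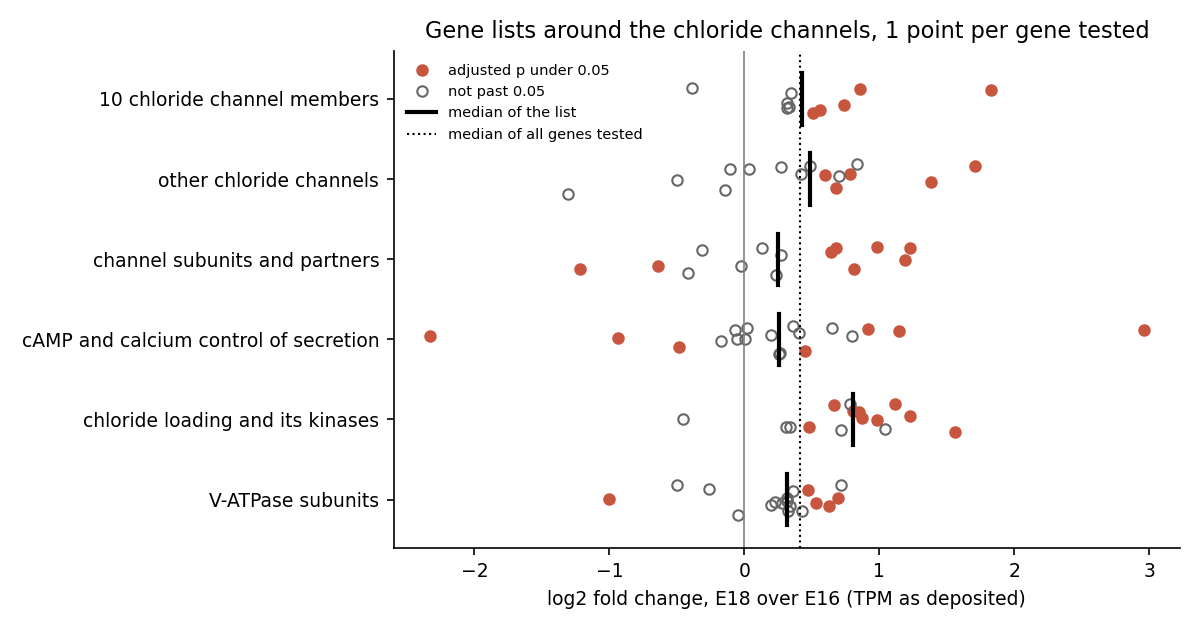
Log2 fold change of E18 over E16 (horizontal axis, TPM as deposited) for each tested gene of the 10 chloride channel genes and the 5 surrounding lists, filled where the adjusted p was under 0.05, with a black bar at the median of each list and a dotted line at the median of all genes. The chloride loading list has the highest median, 0.80, and the medians of the other lists lie between 0.25 and 0.49.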

How the data were processed

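The deposited values are TPM per gene for 6 libraries. The authors checked the reads (FastQC 0.11.7), removed adapters with Trimmomatic, aligned the reads of stranded total RNA libraries to GRCm38 (HISAT2 2.1.0) and computed TPM from HTSeq gene counts. The counting mode and its strand setting are not given in the sources used here. GENCODE vM21, on the same build, gave names, coordinates and exon lengths and holds 52403 of the 52550 identifiers. TPM multiplied by exon length gave whole reads, within 0.01, for 100% of the 180057 nonzero values of genes with the same version in vM21, and these reads served for depth and for voom only. The limit of 3 reads covers counting error only.

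Samples were grouped by their labels. For the stages, linear models on log2(TPM + 1), a scale that understates the change of low genes, were fitted with limma 3.58.1 (R 4.3.3, trended empirical Bayes). Genes averaging 1 TPM or more entered, and p-values were adjusted by Benjamini-Hochberg over all of them. Exact permutation tests were two-sided, in Python 3.11.15 with scipy 1.17.1. The labels do not say that the pools of a stage were prepared separately in all steps, so p-values measure the spread between these libraries. No pair of libraries of a stage agreed within counting noise. The alternatives were a pseudocount of 0.1, no filter, a filter of 5 TPM, median-of-ratios scaling, quantile normalization, a replicate block and fits without each library. Voom on recovered reads and leaving out libraries for shares and ratios were added after seeing the data. On simulated libraries with 21011 genes tested and 200 changed, the fit called 97% of true 4-fold changes and 25% of true 2-fold changes, and made 14 false calls. The simulation gave all genes the same dispersion, drew the changed genes from those with many reads, and had no general shift between the stages. These rates therefore need not hold for the real libraries.

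The chloride channel genes, the lists around them and the marker lists were chosen with earlier results of these data known. The text names all 10 genes. Of each list around them it names up to 3 rises and 3 falls with the largest log2 fold changes among genes past the threshold and the 2 genes with the highest mean TPM, and of the marker lists the 2 with the highest mean TPM, with Alb, Ctrb1, Cpa1, Pf4 and Sox9 in any case. For Cftr and Ano1 it names the 5 genes most alike. Genes named outside this rule (Clcn4, Clcn6, Lrrc8b, Lrrc8c, Lrrc8d, Itpr2, Slc12a2, Ptf1a, Emcn and Egfl7) were chosen after their values were seen. Promoter windows came from RefSeq (GRCm38.p6). No promoter or protein sequence other than these was used here. Results for a gene that the rule would name are not reported here.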

Additional observations from a re-analysis of the deposited data

How the results depend on the processing

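The number of genes that passed between the stages was 7000 as reported, 4282 with no filter on low values, 3795 with median-of-ratios scaling, 3796 with quantile normalization and 1472 to 5686 when 1 library was left out, the lowest without replicate A of E18. Of all calls, 83.3% were higher at E18 with TPM as deposited, 38.1% with median-of-ratios scaling and 50.5% with quantile normalization. Of the 10 chloride channel genes, 5 passed as reported, 1 with median-of-ratios scaling, 1 with quantile normalization, 3 with voom, which tested 8 of them, and 0 to 4 without 1 library. Among genes listed as other chloride channels the count of 5 became 2 and 1 under these scalings and 0 to 5 without 1 library, with 0 without replicate A or B of E18. The 8 channel partners became 5 with no filter and 0 to 8 without 1 library, the 7 genes of cAMP and calcium control 4 with no filter and 3 to 5 without 1 library, and the 9 genes of chloride loading 5 with median-of-ratios scaling and 2 to 9 without 1 library. Each of these lowest counts came without replicate A of E18. The 5 proton pump genes became 2 with no filter, 3 with quantile normalization, 3 with voom and 1 to 5 without 1 library.

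The sign reversed for Cftr with quantile normalization (-0.10) and without replicate C of E16 (-0.45), in a range of -0.45 to 0.92 over the libraries left out. It also reversed for Ano6 (-0.15) and Clcn5 (-0.14) with median-of-ratios scaling, and for Lrrc8a with both scalings (-0.083 and -0.060). The cause was not tested. The change in the shares of Ano1 and Lrrc8e, in Clcn7 to Ostm1, and in Ano1 and Cftr relative to the cholangiocyte list kept its direction whichever library was left out. All of these had stages without overlap, so leaving out a library could not turn the direction.

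The letters A, B and C gave same-letter correlations of -0.042, 0.081 and 0.14 between the stages, so they were not taken to pair the libraries. A replicate block gave 7314 genes, the same number of chloride channel genes and 8 proton pump genes. Cftr was not tested at 5 TPM, and voom had no recovered reads for Ano6 and Clcn7. The low Cftr value in replicate C of E16 rested on 32 reads, in a library of 23457078 recovered reads. That library had more reads than each E18 library, and the cause of the low value was not tested.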

Other observations

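Other cell types of the embryonic liver were described by their marker lists beside the chloride channel genes. The counts of these lists stand beside 26.0% of all genes tested that were higher at E18 and 5.22% that were lower. Mesothelial genes, of the cells that line the liver surface, were low but higher at E18 in all 6 of 6, with summed levels of 4.56 to 12.6 TPM at E16 and 47.2 to 98.4 TPM at E18. Msln, the mesothelial surface protein, had 2.70, 0.243 and 0.178 TPM at E16 and 14.2, 37.7 and 38.0 TPM at E18, and Gpm6a, a membrane glycoprotein, had means of 3.30 and 15.2 TPM. Pf4, a platelet chemokine, had 1830, 1112 and 3505 TPM at E16 and 15.8, 273 and 57.03 TPM at E18, and Ppbp, another one, means of 1486 and 87.5 TPM. Afp, the fetal counterpart of albumin, had means of 27566 and 3881 TPM (limma adjusted p = 0.00852).

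Spp1, for osteopontin, led the cholangiocyte genes, with 1278, 1767 and 469 TPM at E16 and 10012, 12121 and 6629 TPM at E18, followed by the adhesion gene Cdh1 with means of 372 and 896 TPM. Sox9, whose reporter was used for the sort, had 157, 186 and 69.5 TPM at E16 and 415, 466 and 353 TPM at E18 (limma adjusted p = 0.0174). The endothelial list had 2 of 9 genes higher at E18, Emcn and Egfl7, and 0 higher without replicate B or C of E16 or any 1 library of E18 (1 to 4 at an unadjusted p under 0.05). Its most abundant genes, Stab2 at means of 33.0 and 57.7 TPM and Cdh5 at 16.2 and 31.5 TPM, did not pass. The mesenchyme and smooth muscle list had 2 of 10 higher (1 when any library except replicate A of E16 was left out), with Col1a1 at 63.5 and 172 TPM and Col3a1 at 40.3 and 106 TPM, and neither passed. The macrophage and leukocyte list had 3 of 8 higher (1 with median-of-ratios scaling or quantile normalization, and 0 of 5 with voom), with Csf1r at 21.5 and 41.9 TPM, while Lyz2 had 61.1 and 23.3 TPM and did not pass. Of the erythroid list, 1 of 8 was lower (4 without replicate B of E18), and Hba-a1 and Hbb-bs had overlapping stages. Chga and Pdx1 were the highest of the pancreatic endocrine and progenitor list, with Chga at 6.52 and 6.25 TPM, and Tff2 was the highest of the gallbladder list after Krt23, at 10.1 and 9.84 TPM. No gene of these lists was at 0 in all 6 libraries. Their part in the levels of the chloride channel genes was not tested.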
